A study of Mus musculus with 6 samples.

Results

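Metalloproteases and their inhibitors were described in mouse organoids of pancreatic ductal adenocarcinoma (PDAC), grown from 1 line, in which Jag1, a transmembrane ligand of the Notch receptors, had been knocked down. The genes were chosen by symbol, as the protein-coding genes of the matrix metalloproteinase (Mmp), Adam, Adamts and Timp families. The rule uses symbols and no measured value, but this group of genes was taken up with earlier results of these data known. The deposited table listed 30 of them among 14254 genes, out of 83 in the GENCODE M21 annotation. Of the 30, 28 reached 10 normalised counts in 3 or more libraries and were tested, and Adam33 and Adamts17 were below this level. The tested genes were 4 secreted MMPs, 4 membrane-bound MMPs, 9 ADAMs, 6 ADAMTS proteases, 2 ADAMTS-like proteins and 3 TIMPs. RNA sequencing was done on 3 samples with a lentiviral short hairpin RNA against Jag1, the hairpin numbered 3 (shJag1), and on 3 samples with a control hairpin (shCtrl). Both groups came from the same line, KPF_5.3G, and grew in the same medium with gastrin, EGF, FGF-10, Noggin and R-spondin-1, so each result rests on 1 line and 1 hairpin. The labels give the genotype as Jag1 knockdown for shJag1 and as WT for shCtrl.

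MMPs, ADAMs and ADAMTS enzymes are zinc-dependent proteases. MMPs cut collagens and other matrix proteins outside the cell, and the membrane-bound ones do so at the cell surface. ADAMs, which are anchored in the membrane, release the outer parts of surface proteins such as growth factor precursors and adhesion molecules, and Adam10 makes the cut in Notch receptors that follows the binding of a ligand such as Jag1. ADAMTS enzymes are secreted and cut proteoglycans and procollagens, and ADAMTS-like proteins resemble them but lack the protease domain. TIMPs are small secreted proteins that block the active site of these enzymes. In pancreatic tumours the surrounding stroma is a known source of many of them, whereas organoid cultures hold the tumour cells without that stroma.

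Reads counted to the listed features, spike-ins included, came to 22268997 to 35172593 per library. Values are normalised counts, which are read counts divided by 1 factor per library, and a level compared between genes is given per kb of exon. Jag1 itself had 226, 321 and 557 normalised counts in shJag1 replicates 1, 2 and 3, against 412, 983 and 847 in shCtrl replicates 1, 2 and 3. It was lower in the shJag1 library of each number but the groups overlapped, and its log2 change was -1.03 (SE 0.45, adjusted p = 0.691 in limma, and -1.02 with adjusted p = 0.0063 in DESeq2 with the replicate number as a term). That DESeq2 call was lost without replicate 2 or 3 (adjusted p = 0.773 and 0.0829). Libraries with the same number deviated together, and both replicate 1 libraries stood apart from the other 4. This separation was not particular to the protease genes: both replicate 1 libraries lay below the other 4 for 23.3% of all tested genes and above them for 23.7%. Of the 28 tested members, 11 (39.3%) lay below and 3 (10.7%) above. Of 6 epithelial markers all were listed and 3 rose in DESeq2 with the replicate term, beside 4.54% of all genes. Limma without or with that term, and edgeR without it, called 0 of the 6. DESeq2 without the term called 1 of the 6, as higher, beside 0.729% of all genes. Of 10 fibroblast markers only Pdgfra and Pdgfrb were listed, with a summed 28.9 to 45.5 normalised counts in shJag1 libraries and 35.6 to 44.8 in shCtrl libraries. The collagen and decorin genes that define that cell type were not among the listed genes. The lowest total of any listed feature was 61 reads over all libraries, so a gene that was not listed, here or below, may still have had reads.

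Proteases of the cell surface made up most of the metalloprotease RNA, and few secreted MMPs were listed. Adam9, Adam10, Adam15 and Adam17 together held 96.7% to 98.7% of the summed ADAM level per kb in shJag1 libraries and 98.3% to 98.9% in shCtrl libraries. Mmp14 and Mmp15 held 87.1% to 91.5% of the summed MMP level per kb in shJag1 libraries and 78.2% to 94.7% in shCtrl libraries. Mmp2 and Mmp9, the gelatinases, were not among the 4 listed secreted MMPs, which were Mmp7, Mmp11, Mmp13 and Mmp28. Timp4 was not listed either, and Timp2 held 58.7% to 66.9% of the TIMP level per kb in shJag1 libraries and 62.4% to 69.0% in shCtrl libraries.

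**Figure D1:**
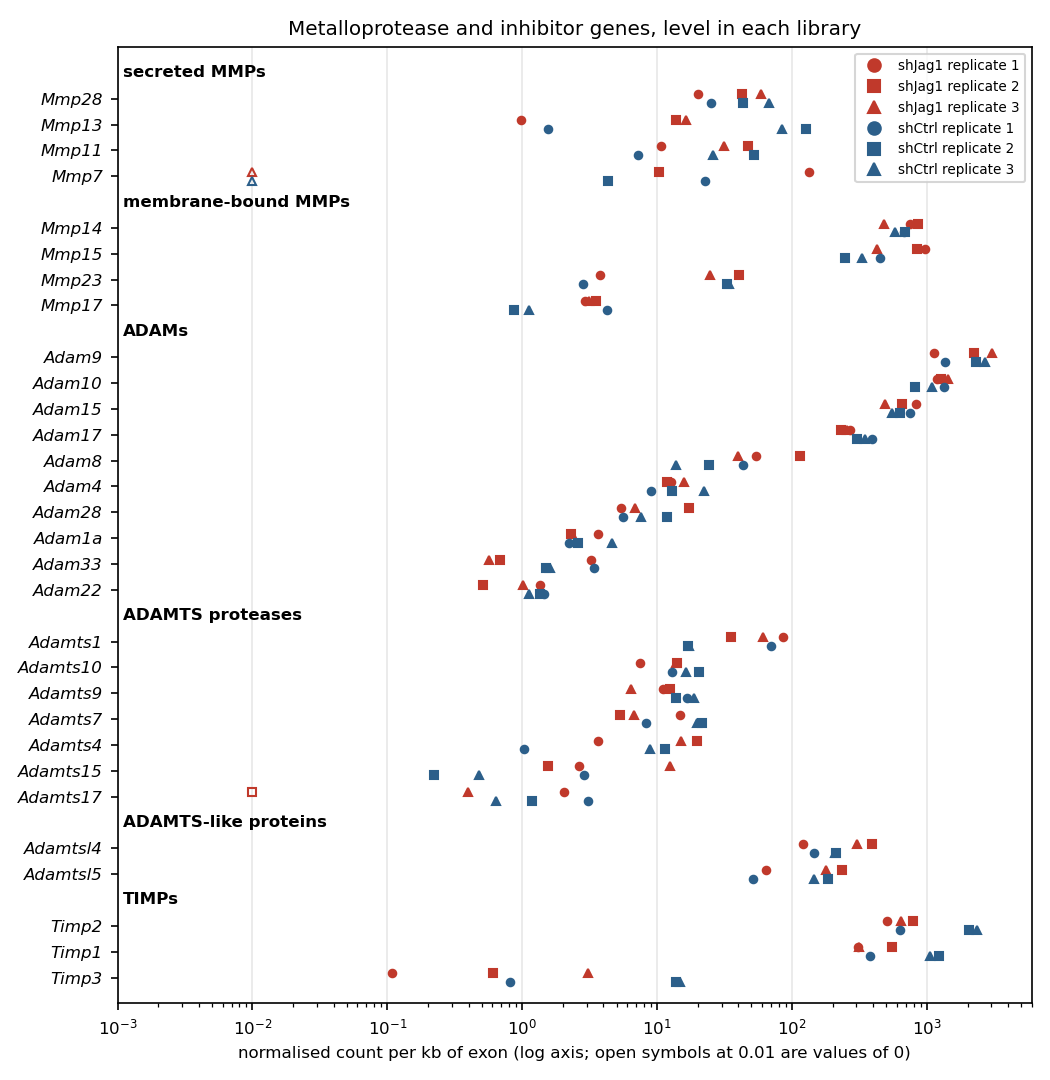
Level of each of the 30 listed genes in each library, as normalised count per kb of exon on a log axis, by family, with shJag1 libraries (red) above shCtrl libraries (blue) and symbols for the replicate number. Adam9, Adam10, Adam15, Mmp14, Mmp15, Timp1 and Timp2 lie at the right. Adam17, Adamtsl4 and Adamtsl5 come next, with means of 300, 229 and 143 per kb over all libraries, and most other genes lie below 100 per kb. Both replicate 1 libraries (circles) lie apart for genes such as Mmp13 and Mmp23.

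No metalloprotease or inhibitor gene passed limma without the replicate term, and 6 passed DESeq2 with it. In DESeq2 with that term Timp1, Timp2, Timp3 and Mmp13 fell and Mmp15 and Adam8 rose, which is 6 of 28 members (21.4%) against 7.14% of all tested genes. By direction 4 of 28 (14.3%) fell against 2.60% of all genes, and 2 of 28 (7.14%) rose against 4.54%. In limma without the term 0 members were called, as were 0% of all genes, with 4 members and 1021 genes at an unadjusted p below 0.05. edgeR without the term also called 0 members, with 4 at an unadjusted p below 0.05, and limma and edgeR with the term called 0 members while 0.0143% of all genes passed. DESeq2 without the term called 0 members, with 9 at an unadjusted p below 0.05, and 1.26% of all genes (0.729% higher, 0.536% lower). The median log2 change of the 28 members was 0.03 in limma, beside 0.00 for all tested genes, with 15 members above 0 and 13 below.

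All 6 DESeq2 calls were lost without replicate 2, and all but that of Mmp15 without replicate 3. In limma on replicates 2 and 3 only, the 3 TIMPs, Mmp13 and Adamts7 fell and Adamts1 rose. These were 6 of 28 members, against 9.62% of all genes (6.04% higher, 3.57% lower). Mmp15 and Adam8 did not pass in that fit (adjusted p = 0.109 and 0.0913 in limma). DESeq2 with the replicate term called 10 members without replicate 1, 5 of them higher and 5 lower, beside 15.5% of all genes (9.24% higher, 6.24% lower). It called 0 members without replicate 2, beside 0.714% of all genes, and 1 member, Mmp15, without replicate 3, beside 0.893% (0.614% higher). In limma, scaling by spike-in reads called 1 member, Timp3 (lower), beside 0.829% of all genes (0.279% lower), and leaving out shCtrl replicate 1 called 1 member, Timp2 (lower), beside 2.10% (1.50% higher, 0.600% lower). Members with the same sign in all 3 pairs of same-numbered libraries were 14 of 28, against 42.0% of all genes, with 5 higher (22.3% of all genes) and 9 lower (19.7%). Mitochondrial genes took fewer of the reads in each shJag1 library than in its pair, at 0.555%, 1.02% and 1.20% in shJag1 replicates 1, 2 and 3, against 0.595%, 1.55% and 2.03% in shCtrl replicates 1, 2 and 3, and the part of this share in the results was not tested.

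**Figure D2:**
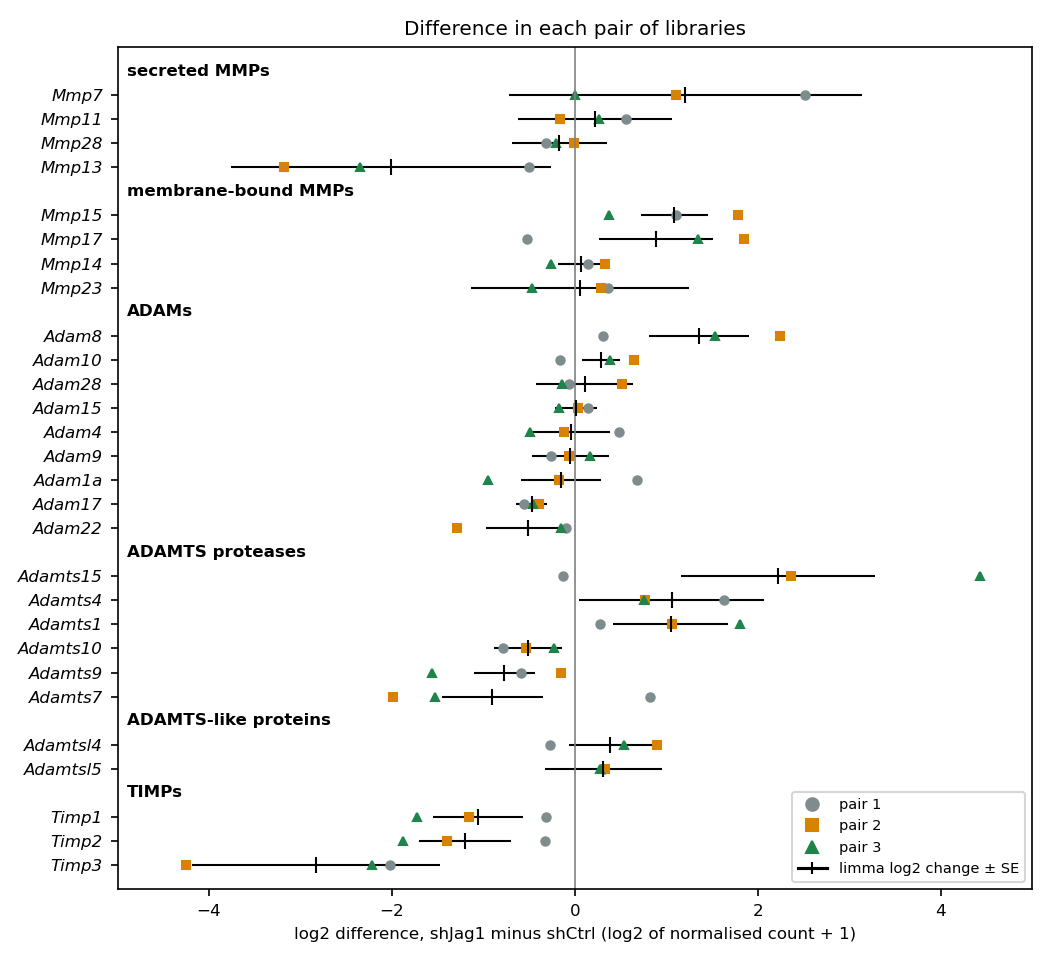
Log2 difference, shJag1 minus shCtrl, on the scale of log2 of the normalised count plus 1, for each of the 28 tested genes in the pairs of libraries numbered 1, 2 and 3 (coloured symbols), with the limma log2 change and its SE (black). All 3 TIMPs lie left of 0 in all 3 pairs, with the smallest difference in pair 1, whereas Adam17 has nearly the same difference in each pair.

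The TIMPs were the family in which every tested gene fell in DESeq2 with the replicate term. Timp2, which blocks many MMPs and also takes part in the activation of pro-Mmp2 by Mmp14, is encoded at 118301069 to 118355740 of chromosome 11, minus strand, in GRCm38 (ENSMUSG00000017466). It had 1968, 3049 and 2510.1 normalised counts in shJag1 replicates 1, 2 and 3, against 2466, 8027 and 9212 in shCtrl replicates 1, 2 and 3. The shCtrl libraries 2 and 3 were high, shCtrl replicate 1 was among the shJag1 values, and the groups overlapped. The mean was 2509 ± 540.3 in shJag1 and 6568 ± 3602 in shCtrl libraries (SD, n = 3 each), and the log2 change was -1.20 (SE 0.30; adjusted p = 0.00257 in DESeq2 with the replicate term, and adjusted p = 0.678 in limma without it).

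Timp1, an inhibitor that is also known as a secreted growth factor-like protein, lies on the plus strand of the X chromosome from 20870166 to 20874735 (ENSMUSG00000001131). Its normalised counts were 272, 488 and 280.4 in shJag1 replicates 1, 2 and 3, against 338, 1088 and 928 in shCtrl replicates 1, 2 and 3. As with Timp2, shCtrl replicates 2 and 3 were above all shJag1 libraries and shCtrl replicate 1 was not. The log2 change was -1.07 (SE 0.31, adjusted p = 0.0131 in DESeq2 with the replicate term, and adjusted p = 0.701 in limma without it).

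Timp3, the TIMP that binds to the matrix and also inhibits Adam17, lies on the plus strand of chromosome 10 from 86300372 to 86349506 (ENSMUSG00000020044) and was far lower in level than the other two. It had 0.877, 4.92 and 25.2 normalised counts in shJag1 replicates 1, 2 and 3, against 6.63, 111 and 121 in shCtrl replicates 1, 2 and 3. The lowest of these values was a single read, and shJag1 replicate 3 lay above shCtrl replicate 1. Its log2 change was -3.17 (SE 0.74, adjusted p = 0.00115 in DESeq2 with the replicate term), and -2.83 (SE 1.36, adjusted p = 0.701) in limma without it. The exons of Timp3 share 21.3% of their length with Syn3, annotated on the opposite strand, and the library kit does not mark strand; Syn3 was not among the listed genes. Without replicate 2 or replicate 3, none of the 3 TIMPs passed DESeq2 with the replicate term (adjusted p from 0.126 to 0.605), and on replicates 2 and 3 only all of them passed limma (adjusted p from 0.00733 to 0.0458).

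Epithelial markers summed higher in the shJag1 library of each number, and their part in the TIMP result was not tested. The summed normalised count of the 6 markers was 217666, 578068 and 349519 in shJag1 replicates 1, 2 and 3, against 165847, 235714 and 209427 in shCtrl replicates 1, 2 and 3, and the fibroblast markers stayed at the low sums given above. In bulk samples, fewer cells that make a transcript and less of it per cell cannot be told apart.

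**Figure D3:**
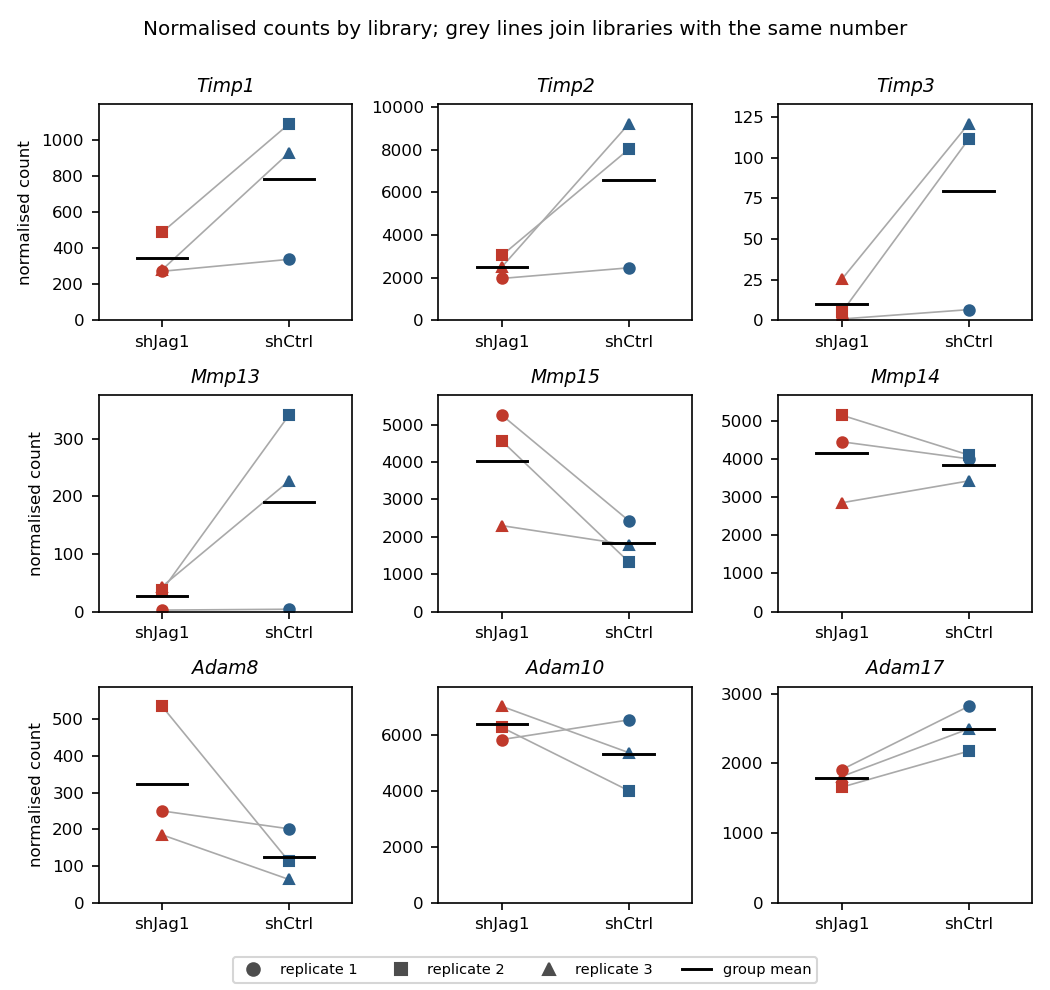
Normalised counts of the 6 genes called in DESeq2 with the replicate term and of Mmp14, Adam10 and Adam17, with shJag1 left of shCtrl, the group mean as a bar and grey lines between libraries with the same number. The TIMPs and Mmp13 are high in shCtrl replicates 2 and 3 only, Mmp15 is higher in each shJag1 library than in the shCtrl library of its number, and the Adam17 groups do not overlap.

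Mmp14 and Mmp15, both membrane-bound, held the highest MMP levels, with means of 671 and 545 per kb over all 6 libraries. The other membrane-bound MMPs, Mmp23 and Mmp17, held the lowest, at 23.1 and 2.64 per kb. Mmp15, a transmembrane matrix protease, lies on the plus strand of chromosome 8 from 95352268 to 95375080 (ENSMUSG00000031790). It had 5251, 4560.0 and 2298 normalised counts in shJag1 replicates 1, 2 and 3, against 2431, 1329 and 1780.1 in shCtrl replicates 1, 2 and 3. Each shJag1 library was above the shCtrl library of its number, and the groups overlapped since shJag1 replicate 3 lay just below shCtrl replicate 1. Mmp15 rose by 1.09 on the log2 scale (SE 0.28, adjusted p = 0.00455 in DESeq2 with the replicate term, adjusted p = 0.637 in limma without it), and the DESeq2 call was lost without replicate 2 (adjusted p = 0.557). Mmp15 differs from the other called members in that its pair 1 difference, 1.11, was not the smallest, which was 0.37 in pair 3.

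Mmp14, the related protease that cuts fibrillar collagen and activates pro-Mmp2, lies on chromosome 14 from 54431612 to 54445364 on the plus strand (ENSMUSG00000000957). Its normalised counts were 4451, 5149 and 2852 in shJag1 replicates 1, 2 and 3, against 4004, 4107 and 3424 in shCtrl replicates 1, 2 and 3. The groups overlapped throughout, and the log2 change of 0.07 (SE 0.25, adjusted p = 0.973 in limma) had the opposite sign, -0.11, with scaling by spike-in reads, which moved the median of all genes to -0.18. Per kb of exon Mmp15 stood at 1.30, 0.978 and 0.890 times the level of Mmp14 in shJag1 replicates 1, 2 and 3, against 0.670, 0.357 and 0.574 times in shCtrl replicates 1, 2 and 3. This ratio, formed after the values were seen and not tested, did not overlap between the groups. Mmp17, a membrane-bound MMP held by a lipid anchor, stayed between 19.3 and 23.3 normalised counts in shJag1 libraries and ranged from 5.74 to 28.2 in shCtrl libraries. Mmp23 was set by the replicate number, at 8.77, 94.6 and 57.3 in shJag1 replicates 1, 2 and 3, and 6.63, 76.9 and 79.7 in shCtrl replicates 1, 2 and 3. Neither of them passed any fit without or with the replicate term on all 6 libraries.

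Among the secreted MMPs, only Mmp13 was called on all 6 libraries, as lower in DESeq2 with the replicate term. Mmp13, the main interstitial collagenase of the mouse, lies on the plus strand of chromosome 9 from 7272514 to 7283331 (ENSMUSG00000050578). It had 2.63, 36.9 and 43.6 normalised counts in shJag1 replicates 1, 2 and 3, against 4.14, 341 and 227 in shCtrl replicates 1, 2 and 3. Both replicate 1 libraries were near the lower limit of the measurement, and in replicates 2 and 3 the shJag1 libraries kept 10.8% and 19.2% of the shCtrl count. The log2 change was -2.46 (SE 0.55, adjusted p = 5.54e-04 in DESeq2 with the replicate term), against -2.01 (SE 1.75, adjusted p = 0.85) in limma without it. The limma value was -3.93 without shCtrl replicate 1, -0.84 without shJag1 replicate 1, -0.90 without shCtrl replicate 2 and -1.20 without shCtrl replicate 3. Without replicate 2 or 3 the DESeq2 adjusted p was 0.707 and 0.203.

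The highest mean level per kb of a secreted MMP was that of Mmp7 in shJag1 libraries, at 48.1, and that of Mmp13 in shCtrl libraries, at 71.3. The Mmp7 mean rests mostly on shJag1 replicate 1 and the Mmp13 mean on shCtrl replicates 2 and 3, so neither describes its whole group. Mmp28 (epilysin), at 40.5 per kb in shJag1 and 45.0 per kb in shCtrl libraries, had 78.1, 166 and 226 normalised counts in shJag1 replicates 1, 2 and 3, and 96.9, 167 and 259 in shCtrl replicates 1, 2 and 3, with -0.17 as its log2 change (SE 0.52, adjusted p = 0.97 in limma) and 12.0% of its exon length shared with 1700020L24Rik on the opposite strand. Mmp11 (stromelysin 3) had 29.8 to 130.2 in shJag1 libraries and 19.9 to 146 in shCtrl libraries. Mmp7 (matrilysin), an epithelial MMP known from ducts that turn metaplastic, had 143, 11.1 and 0 in shJag1 replicates 1, 2 and 3, against 24.0, 4.59 and 0 in shCtrl replicates 1, 2 and 3. Its level was highest in shJag1 replicate 1, and 0 reads were counted in both replicate 3 libraries, which allows up to 3 reads. These 3 genes did not pass any fit on all 6 libraries.

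None of the abundant ADAMs passed any fit on all 6 libraries, and among them only Adam17 had groups that did not overlap. Adam17, the sheddase of TNF and of several EGF receptor ligands, is encoded at 21323509 to 21373632 of chromosome 12, minus strand (ENSMUSG00000052593). It had 1909, 1659 and 1811 normalised counts in shJag1 replicates 1, 2 and 3, against 2818, 2175 and 2494 in shCtrl replicates 1, 2 and 3. Every shJag1 library was below every shCtrl library, which held for 2 of the 28 members (Adam17 and Adamts9, both lower) and, in this direction, for 5.44% of all tested genes. No member lay wholly above, as 6.29% of all genes did. The pair differences were -0.56, -0.39 and -0.46 on the log2 scale, and the mean was 1793 ± 126 in shJag1 and 2496 ± 321 in shCtrl libraries (SD, n = 3 each). The log2 change of -0.47 (SE 0.17) missed the threshold both in DESeq2 with the replicate term (adjusted p = 0.0618) and in limma without it (adjusted p = 0.643). Adam17 shares 4.3% of its exon length with Iah1 on the opposite strand, and reads of the shared part cannot be told apart.

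Adam10, the Notch sheddase, lies on the plus strand of chromosome 9 from 70678997 to 70780229 (ENSMUSG00000054693). It had 5840.2, 6273 and 7027 normalised counts in shJag1 replicates 1, 2 and 3, against 6542, 4010.4 and 5372 in shCtrl replicates 1, 2 and 3. The groups overlapped, and the log2 change was 0.29 (SE 0.21, limma adjusted p = 0.822). In limma on replicates 2 and 3 only, the change of Adam10 was 0.52 (adjusted p = 0.139), beside -0.43 (adjusted p = 0.138) for Adam17. Adam9, a sheddase with the highest level per kb of all members, had 4669, 9141 and 12414 in shJag1 replicates 1, 2 and 3, and 5576, 9538 and 11028 in shCtrl replicates 1, 2 and 3. It followed the replicate number rather than the group, and its log2 change, -0.05 (SE 0.42; limma adjusted p = 0.991), differed in sign between fits. Adam15, known for its role in cell adhesion, averaged 4025 ± 1035 in shJag1 and 3946 ± 595 in shCtrl libraries (SD, n = 3 each), and 20.6% of its exon length is shared with 4731419I09Rik on the opposite strand.

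Adam8, a sheddase known from leukocytes and from pancreatic tumour cells, is encoded at 139978932 to 139992562 of chromosome 7, minus strand (ENSMUSG00000025473). Its normalised counts were 249.96, 535 and 185 in shJag1 replicates 1, 2 and 3, against 201, 113 and 63.5 in shCtrl replicates 1, 2 and 3. Each shJag1 library was above the shCtrl library of its number, but shJag1 replicate 3 lay below shCtrl replicate 1. Adam8 rose by 1.36 on the log2 scale (SE 0.41, adjusted p = 0.0196 in DESeq2 with the replicate term, adjusted p = 0.668 in limma without it), and without replicate 2 or 3 the DESeq2 adjusted p was 1.00 and 0.377. Of 9 immune markers only Cd68, which encodes a lysosomal protein of macrophages, was listed, and the defining leukocyte gene Ptprc was not. Cd68 had 117, 988 and 400.4 normalised counts in shJag1 replicates 1, 2 and 3, against 98.6, 136 and 111 in shCtrl replicates 1, 2 and 3, and rose in DESeq2 with the replicate term (log2 change 1.67, SE 0.46, adjusted p = 0.00801), a call lost without replicate 2 or 3 (adjusted p = 0.856 and 0.231 in that fit), and its part in the Adam8 result was not tested. The remaining ADAMs were low: Adam28 had 49.1 to 157 normalised counts in shJag1 and 51.4 to 109 in shCtrl libraries, and Adam1a, Adam4 and Adam22 stayed between 7.37 and 56.1 in all libraries. The untested Adam33 had 3.06 to 17.5 in shJag1 and 8.04 to 18.2 in shCtrl libraries. Adam1a shares 63.7% of its exon length with Gm42878 and 24.0% with Mapkapk5, both on its own strand, so its counts are uncertain.

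No ADAMTS gene passed on all 6 libraries, and their pairs differed from each other. Adamts1, an aggrecan and versican protease and the ADAMTS with the highest level per kb, had 454, 188 and 322 normalised counts in shJag1 replicates 1, 2 and 3, against 373, 89.6 and 90.9 in shCtrl replicates 1, 2 and 3. The shJag1 library was higher within each number, and the log2 change of 1.05 (SE 0.63) had an adjusted p of 0.776 in limma and of 0.0524 in DESeq2 with the replicate term. Adamts15, a proteoglycan protease, had 27.2, 16.0 and 128 in shJag1 replicates 1, 2 and 3, against 29.8, 2.30 and 4.98 in shCtrl replicates 1, 2 and 3. Its log2 change of 2.22 (SE 1.06, adjusted p = 0.701 in limma) was the largest positive value of any member, with shJag1 replicate 3 far above the other libraries and pair 1 near 0. Adamts4, a related aggrecan protease, had 17.5 to 94.6 normalised counts in shJag1 and 4.97 to 55.1 in shCtrl libraries, and Adamts10 had 61.4 to 117 in shJag1 and 106 to 169 in shCtrl libraries. The untested Adamts17 had 0 to 15.8 in shJag1 and 4.98 to 24.0 in shCtrl libraries. Adamts9 had 166, 188 and 95.5 in shJag1 replicates 1, 2 and 3, against 250.2, 209 and 284 in shCtrl replicates 1, 2 and 3, and passed neither limma (adjusted p = 0.691) nor DESeq2 with the replicate term (adjusted p = 0.216). Adamts7, which cuts cartilage oligomeric matrix protein, was higher in the shJag1 library of pair 1 (0.82) and lower in pairs 2 and 3 (-1.99 and -1.53). The ADAMTS-like gene Adamtsl4, whose product binds fibrillin, averaged 1139.8 ± 583 in shJag1 and 787 ± 153 in shCtrl libraries (SD, n = 3 each), and its log2 change was 0.39 (SE 0.45; limma adjusted p = 0.885). Adamtsl5 differed by 0.32, 0.33 and 0.28 in pairs 1, 2 and 3, and did not pass (adjusted p = 0.946 in limma and 0.405 in DESeq2 with the replicate term).

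Summed per kb, the TIMPs were highest in shCtrl replicates 2 and 3 and the MMPs in shJag1 replicates 1 and 2. The summed TIMP level was 811, 1332 and 963 per kb in shJag1 replicates 1, 2 and 3, against 1014, 3299 and 3424 in shCtrl replicates 1, 2 and 3. The summed MMP level was 1892, 1867 and 1038 per kb in shJag1 replicates 1, 2 and 3, against 1186, 1196 and 1117 in shCtrl replicates 1, 2 and 3. The ratio of TIMP to MMP level was 0.429, 0.714 and 0.928 in shJag1 replicates 1, 2 and 3, against 0.856, 2.76 and 3.06 in shCtrl replicates 1, 2 and 3. It was lower in the shJag1 library of each number, and the groups overlapped because shJag1 replicate 3 lay above shCtrl replicate 1. These sums were formed after the values were seen and carry no test.

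**Figure D4:**
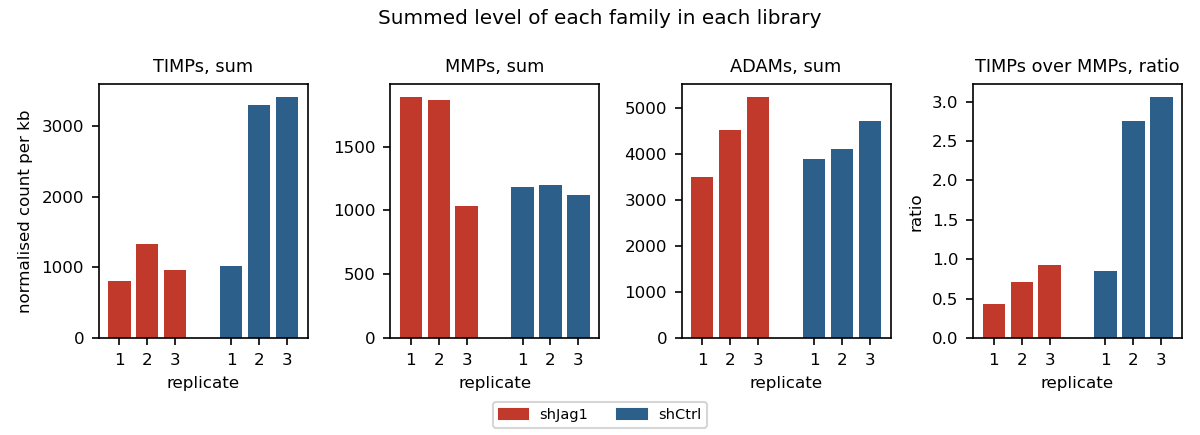
Summed level per kb of exon of the 3 TIMPs, the 8 MMPs and the 10 ADAMs in each library, and the ratio of the TIMP sum to the MMP sum, with shJag1 (red) left of shCtrl (blue). The TIMP sum is 3299 and 3424 per kb in shCtrl replicates 2 and 3 and at most 1332 in the other libraries, while the ADAM sum lies between 3497 and 5257 in all 6 libraries.

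The listed genes that control these proteases comprised convertases that remove the inhibitory prodomain (Furin and the Pcsk genes), the iRhom genes Rhbdf1 and Rhbdf2 with Frmd8, which carry Adam17 to the surface, tetraspanins that guide Adam10, and Bsg, an inducer of MMPs. Of the 16 genes in that list 14 were tested, and Reck, a membrane inhibitor of MMPs, was not listed. DESeq2 with the replicate term called 0 of the 14, with 2 at an unadjusted p below 0.05, beside 7.14% of all genes called and 2549 of 13997 at an unadjusted p below 0.05, so nothing is read from the count of 0. Likewise limma and edgeR without the term called 0, with 0 at an unadjusted p below 0.05. Their median log2 change was 0.10 in limma. The iRhom genes Rhbdf1 and Rhbdf2 had adjusted p of 0.976 and 0.79 in DESeq2 with the replicate term. Of 9 other tested zinc metalloproteases, such as Bmp1, Ece1 and Cpe, limma and edgeR without the replicate term called 0, with 0 at an unadjusted p below 0.05. DESeq2 with the term also called 0 of the 9, beside 7.14% of all genes, with 2 at an unadjusted p below 0.05, as in limma with the term.

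Surface proteins listed as substrates of Adam10 or Adam17 moved both ways. Of 33 tested, 2 rose and 5 fell in DESeq2 with the replicate term, against 4.54% and 2.60% of all genes. The 5 that fell include Jag1, the gene the hairpin targets, whose fall comes from the design. The median log2 change was -0.12 in limma, where 0 were called and 5 had an unadjusted p below 0.05. DESeq2 without the replicate term called 1, Cdh2 (lower, adjusted p = 0.00462 in that fit), beside 0.536% of all genes lower. Axl, a receptor tyrosine kinase, had 64.0, 1556 and 1872 normalised counts in shJag1 replicates 1, 2 and 3, against 157, 13204 and 10164 in shCtrl replicates 1, 2 and 3, with both replicate 1 libraries far below the rest. It changed by -2.31 (SE 0.32, adjusted p = 3.83e-10 in DESeq2 with the replicate term), and N-cadherin (Cdh2) by -1.20 (SE 0.22, adjusted p = 7.48e-06). The amyloid precursor App changed by -0.65 (SE 0.17, adjusted p = 0.00569), and the adhesion molecule Epcam by 1.37 (SE 0.29, adjusted p = 2.83e-04), both in the same DESeq2 fit. Without replicate 2 the calls of Cdh2, Epcam and App were lost in that fit (adjusted p = 0.1004, 0.105 and 0.303), as was that of App without replicate 3 (adjusted p = 0.551), while Axl passed without any 1 replicate number. Epcam had 12553, 18880.1 and 8720.0 normalised counts in shJag1 replicates 1, 2 and 3, against 8055, 4129.9 and 3566 in shCtrl replicates 1, 2 and 3. Its groups did not overlap, as for 6.29% of all tested genes with shJag1 higher and 5.44% with shJag1 lower. Epcam was not alone among the substrates: the groups of Cdh1 (higher) and of App, Cdh2, Cd44, Notch1 and Mertk (lower) did not overlap either. The other called genes, named after their values were seen, were Jag1 and Cd44, both lower, and Pvr, which was higher.

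Promoter windows are shown for the 6 members called in DESeq2 with the replicate term, where the TIMPs and Mmp13 fell and Mmp15 and Adam8 rose. Limma and edgeR, without or with that term, and DESeq2 without it called 0 members. All 6 calls were lost without replicate 2. Shared control of these genes was not tested. Each window runs from 250 bases before to 50 bases after the transcription start annotated by RefSeq in GRCm38.p6, 5′ to 3′ on the strand of the gene, and 21 of the 30 members had such a window. Capitals mark matches, on either strand, to TGANTCA (AP-1), TGTGGT (RUNX), TGGGAA (RBPJ, the DNA-binding partner of Notch), CACCTG (an E-box bound by ZEB repressors), GGGCGG (SP1) or CATTCC (TEAD).
Timp1, chrX:20869916-20870215, plus strand: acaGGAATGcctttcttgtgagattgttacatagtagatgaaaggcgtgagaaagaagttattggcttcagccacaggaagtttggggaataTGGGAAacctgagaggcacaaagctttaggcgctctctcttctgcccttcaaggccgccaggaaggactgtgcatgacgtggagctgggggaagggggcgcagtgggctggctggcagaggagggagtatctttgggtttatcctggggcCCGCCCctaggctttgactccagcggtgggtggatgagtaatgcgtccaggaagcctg
Timp2, chr11:118355362-118355661, minus strand: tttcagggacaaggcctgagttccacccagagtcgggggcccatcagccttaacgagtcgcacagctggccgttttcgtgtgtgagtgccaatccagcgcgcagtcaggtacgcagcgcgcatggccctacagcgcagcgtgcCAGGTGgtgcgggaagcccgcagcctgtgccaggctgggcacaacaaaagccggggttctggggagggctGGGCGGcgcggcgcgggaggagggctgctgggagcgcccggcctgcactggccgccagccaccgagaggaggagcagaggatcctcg
Timp3, chr10:86300162-86300461, plus strand: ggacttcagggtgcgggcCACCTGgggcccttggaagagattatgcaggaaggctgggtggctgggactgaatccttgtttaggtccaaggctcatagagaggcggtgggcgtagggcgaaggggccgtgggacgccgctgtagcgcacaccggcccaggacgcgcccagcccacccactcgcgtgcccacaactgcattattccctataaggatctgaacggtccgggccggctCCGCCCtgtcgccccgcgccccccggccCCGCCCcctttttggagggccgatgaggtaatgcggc
Mmp13, chr9:7272264-7272563, plus strand: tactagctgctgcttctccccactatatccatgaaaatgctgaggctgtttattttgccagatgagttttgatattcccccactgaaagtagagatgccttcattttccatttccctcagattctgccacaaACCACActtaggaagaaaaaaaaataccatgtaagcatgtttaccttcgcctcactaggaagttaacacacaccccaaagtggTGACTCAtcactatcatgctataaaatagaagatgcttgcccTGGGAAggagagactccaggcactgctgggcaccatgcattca
Mmp15, chr8:95352046-95352345, plus strand: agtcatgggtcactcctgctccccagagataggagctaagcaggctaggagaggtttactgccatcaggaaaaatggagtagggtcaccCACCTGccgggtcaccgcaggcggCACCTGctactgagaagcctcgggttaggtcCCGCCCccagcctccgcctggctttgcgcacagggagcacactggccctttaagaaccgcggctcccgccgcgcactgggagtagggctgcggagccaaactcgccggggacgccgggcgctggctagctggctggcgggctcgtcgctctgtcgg
Adam8, chr7:139992513-139992812, minus strand: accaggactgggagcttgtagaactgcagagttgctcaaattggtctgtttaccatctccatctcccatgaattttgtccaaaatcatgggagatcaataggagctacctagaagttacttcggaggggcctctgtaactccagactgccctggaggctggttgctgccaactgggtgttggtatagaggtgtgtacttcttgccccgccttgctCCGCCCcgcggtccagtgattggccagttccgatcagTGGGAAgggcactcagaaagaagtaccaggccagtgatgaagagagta
The Mmp13 window is the only one of the 6 without a GGGCGG match, which 35.7% of all 32851 windows hold, and the only one with a TGANTCA match, which 7.81% hold. That AP-1 match, TGACTCA, lies from 35 to 29 bases before the start, and a TGTGGT match lies from 118 to 113 bases before it. TGGGAA occurs in the windows of Timp1, Mmp13 and Adam8 and in 25.6% of all windows, and CACCTG in those of Timp2, Timp3 and Mmp15 and in 20.2% of all windows. CATTCC occurs in the Timp1 window and in 14.7% of all windows, and TGTGGT in 16.8% of all windows. The 3 TIMP windows share the GGGCGG match and no other of these motifs. That match is not particular to them, since 16 of the 21 members with a window hold it. A match of letters does not show that a factor binds there.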

How the data were processed

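RNA sequencing of total RNA from 6 organoid samples was deposited as a table of normalised counts, a signal per gene in which the authors divided read counts by 1 size factor per library. Libraries were made with a TruSeq RNA kit, per the labels' protocols. GRCm38, STAR 2.5.2b, Trimmomatic and DESeq2 1.32.0 are named, without their roles, per the submitters' processing notes, and the counting tool and annotation are not given in the sources used here. All 6 deposited tables were identical and 1 was used. Whole reads were recovered: within 0.001 of a read, 100% of the values were multiples of 1 step per library. The deposited factors equal DESeq2's median-of-ratios factors over all 14302 features, 48 spike-ins included. Symbols and positions came from GENCODE M21 for 14219 of 14254 genes.

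The test was limma-trend (limma 3.58.1, R 4.3.3) on log2 of the normalised count plus 1, knockdown minus control, for the 13997 genes with at least 10 in at least 3 libraries, with Benjamini-Hochberg adjustment over all of them at 0.05. edgeR 4.0.16 (quasi-likelihood) and DESeq2 1.42.0 were run on the recovered reads, and each tool also with the replicate number as a term. Log2 changes understate low genes. Libraries numbered 1, 2 and 3 in both groups deviated together (r = 0.677, 0.568 and 0.443). The numbers were therefore treated as pairs in the pair differences and in the fits with the replicate term, but not in the main limma test. However, shJag1 2 with shCtrl 3 (r = 0.385) and shJag1 3 with shCtrl 2 (r = 0.365) came close to the third pair, and what a number marks is not stated. Members and gene lists were chosen with earlier results of these data known. Named genes were Jag1, Adam10, Adam17, Mmp14, the TIMPs, called members, the largest change and highest level of each class, and up to 4 called genes per list; others are given by level. The series' design text calls the samples biological replicates, and p-values measure the spread between these samples. The fits were run on simulated counts with known changes. No replicate stood apart in the simulation as replicate 1 does here, so it does not show how the fits perform on these libraries. Alternatives were other pseudocounts, filters, scalings and left-out libraries. Values under 10 normalised counts rest on few reads.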

Additional observations from a re-analysis of the deposited data

How the results depend on the processing

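Without the replicate term 0 genes and 0 members were called in limma. The counts of all genes and of members were 2 and 0 in limma with the replicate block, 2 and 0 in edgeR with the replicate block, 177 and 0 in DESeq2, 1000 and 6 in DESeq2 with the replicate block, 116 (77 higher, 39 lower) and 1 with spike-in scaling, and 1346 and 6 on replicates 2 and 3 only. Leaving out 1 library at a time in limma gave 0 to 294 genes and 0 to 1 members, the highest without shCtrl replicate 1, where Timp2 passed, and leaving out 1 pair at a time in DESeq2 with the replicate block gave 100 to 2167 genes (125 without replicate 3) and 0 to 10 members. The member median ranged from -0.34 (without shCtrl replicate 1) to 0.21 (DESeq2 with the block, without replicate 3), and was -0.14 with spike-in scaling, where that of all genes was -0.18. Jag1 passed in DESeq2 with the replicate block (-1.02, and -1.10 without replicate 1), and its change ran from -1.41 to -0.73 when libraries or pairs were left out. Signs turned for Mmp14, Adam9 and Mmp28, none of them called. Mmp14 was at -0.11 with spike-in scaling and between -0.11 and 0.32 with libraries or pairs left out (-0.00028 without shJag1 replicate 1, -0.01 without shCtrl replicate 3, -0.06 in DESeq2 with the block without replicate 2). Adam9 was at 0.0035 in edgeR, 0.0046 in DESeq2, 0.05 on replicates 2 and 3 only, and between -0.36 and 0.35 with libraries or pairs left out (0.05 without shCtrl replicate 2, 0.15 without shCtrl replicate 3). Mmp28 lay between -0.53 and 0.26 with libraries or pairs left out, at 0.26 without shJag1 replicate 1 and 0.17 without shCtrl replicate 3. The cause was not tested. Of 357 checks of the 18 named genes other than Jag1 under 20 alternatives, 303 kept sign and side of the threshold, 40 passed where limma did not and 14 changed sign.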
